A study of Mus musculus with 8 samples.

Results

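The GIMAP genes encode GTPases of immunity-associated proteins, a family of small GTP-binding proteins made mainly by lymphocytes. Mouse Gimap1, Gimap3, Gimap4, Gimap5, Gimap6, Gimap7, Gimap8 and Gimap9 were read by symbol from the gene count table. These 8 genes were found among 24108 named genes, and 8 of 8 were among the 13989 genes that passed the filter on low counts. GIMAP proteins sit on membranes of the mitochondrion, endoplasmic reticulum, lysosome and other organelles, and they are best known for keeping mature T cells alive. In mice, loss of Gimap5 depletes peripheral T cells and leads to colitis, and Gimap5 is linked to restraint of the kinase GSK3 during T cell activation. Naive T cells are rich in GIMAP transcripts.

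RNA was read in 4 populations of CD4 T cells positive for a reporter of Foxp3, the factor that defines regulatory T (Treg) cells, sorted from mouse mesenteric lymph node, with 2 libraries per population. The mice carried a Foxp3 allele with the diphtheria toxin receptor and GFP (DTR-GFP), a Foxp3 allele with Thy1.1, 1 copy of a tamoxifen-activated Cre driven by CD4 (CD4CreER) and 1 copy of the Cre-dependent red reporter R26 lsl-tdTomato. They were bred and weaned on AVNM, an abbreviation that the labels do not spell out, with a diet defined in its amino acids. Tamoxifen then marked CD4 T cells, and diphtheria toxin was given alongside for roughly 3 weeks of thymocyte maturation. Chow and a specific pathogen-free (SPF) fecal microbiota followed, and cells were sorted on day 12 of colonization. The populations are called marked GFP, unmarked GFP, marked Thy1.1 and unmarked Thy1.1 here, where marked means tdTomato-positive. All of them carried the same alleles and had the same treatments. The design places the mark on cells outside the thymus that lacked Foxp3, so a marked GFP cell is a candidate peripherally induced Treg cell. Only the GFP allele is named with the toxin receptor, and how Thy1.1 cells that already had Foxp3 at marking were treated is not in the labels, so marked Thy1.1 cells are described by their marks only. The labels also say neither whether GFP and Thy1.1 cells came from the same animals nor whether animals were pooled.

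Library totals lay between 38085686 and 47908198 counts, and each member had at least 5787 counts in every library. Levels are counts scaled to library size (CPM) and adjusted by TMM, a method that evens out differences in library composition. CD4 T and Treg markers summed to 5120 to 5251 CPM in marked GFP, 4201 to 4213 CPM in unmarked GFP, 4034 to 4119 CPM in marked Thy1.1 and 3654 to 3905 CPM in unmarked Thy1.1 libraries, with none of the 7 at 0. The 7 did not move together. By the test described below, 2 were higher and 1 lower in marked GFP against marked Thy1.1 cells, where 8.01% of all tested genes were higher and 6.82% lower. Ctla4 was among the higher, with 1264 and 1072 CPM in marked GFP, against 429 and 460.3 CPM in marked Thy1.1 libraries. Marker sums of other cell types were lower than these but uneven. The endothelial sum reached 304 CPM and the dendritic sum 129 CPM, both in unmarked GFP libraries. The GFP library numbered 3 of the marked cells stood apart, with 29.5 CPM of the hemoglobin gene Hba-a2 and 21.9 CPM of the myeloid gene Lyz2, against 3.55 and 0 CPM in its partner. The GFP library numbered 3 of the unmarked cells held 20.4 CPM of Lyz2 and 36.8 CPM of the plasmacytoid dendritic cell gene Siglech, against 3.01 and 0 CPM in its partner. Each GIMAP call below was therefore repeated without each library in turn.

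All 8 genes lie in 1 cluster on mouse chromosome 6, at chr6:48647234-48770851 of GRCm38 (123.62 kb), in the order Gimap8, Gimap9, Gimap4, Gimap6, Gimap7, Gimap1, Gimap5 and Gimap3. Gimap6 and Gimap3 are on the minus strand and the other members on the plus strand, and all 8 are annotated as protein-coding. Gimap3 and Gimap5 are the closest pair in sequence. Their coding sequences have 903 and 924 bases and are identical at 90.73% of 895 aligned bases, whereas identical runs between other members were at most 17 bases long. The longest run that Gimap3 and Gimap5 share spans 140 bases, at chr6:48765681-48765820 on the minus strand in Gimap3 and at chr6:48752684-48752823 on the plus strand in Gimap5. It is shown because reads of 50 nt that fall wholly within it cannot tell Gimap3 from Gimap5, and it is written in lower case with no part marked.
Gimap3 and Gimap5 shared run: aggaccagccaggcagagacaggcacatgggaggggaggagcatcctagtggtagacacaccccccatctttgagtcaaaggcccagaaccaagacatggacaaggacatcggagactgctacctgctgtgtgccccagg
Of all distinct 50-base words of Gimap3 transcripts, 7.516% also occurred in Gimap5 transcripts, and 4.529% of those of Gimap5 occurred in Gimap3. How the authors' counting treated such reads is not given in the sources used here, so the smaller count of Gimap5 is the more exposed to the larger count of Gimap3. Gimap1 has a further limit, since 36.02% of its exon bases overlap the antisense transcript Gimap1os and 6.443% overlap Gm28053, a gene model that also touches Gimap5 and Gimap7 exons. Neither of those transcripts was analysed here, and the library kit does not mark strand.

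The promoters of the members that changed are shown because they share one cluster but not one set of short motifs. RefSeq sequences of GRCm38.p6 were used for the 250 bases before the start site, which lie at chr6:48770852-48771101 on the minus strand for Gimap3, chr6:48718371-48718620 on the plus strand for Gimap7 and chr6:48738797-48739046 on the plus strand for Gimap1. The promoter of Gimap5, the paralog of Gimap3, lies at chr6:48745947-48746196 on the plus strand. Sequences run 5′ to 3′ on the gene's strand, and capitals mark matches to the motifs searched, on either strand.
Gimap3 promoter: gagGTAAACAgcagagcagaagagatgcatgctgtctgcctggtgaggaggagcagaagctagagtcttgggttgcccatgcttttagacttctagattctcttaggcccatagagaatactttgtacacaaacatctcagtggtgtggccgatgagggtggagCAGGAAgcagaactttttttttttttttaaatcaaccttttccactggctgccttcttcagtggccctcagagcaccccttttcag
Gimap5 promoter: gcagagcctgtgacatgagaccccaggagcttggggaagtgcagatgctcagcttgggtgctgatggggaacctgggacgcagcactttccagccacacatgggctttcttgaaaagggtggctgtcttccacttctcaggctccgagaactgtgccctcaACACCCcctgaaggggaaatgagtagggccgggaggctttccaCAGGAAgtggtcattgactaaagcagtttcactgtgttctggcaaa
Gimap7 promoter: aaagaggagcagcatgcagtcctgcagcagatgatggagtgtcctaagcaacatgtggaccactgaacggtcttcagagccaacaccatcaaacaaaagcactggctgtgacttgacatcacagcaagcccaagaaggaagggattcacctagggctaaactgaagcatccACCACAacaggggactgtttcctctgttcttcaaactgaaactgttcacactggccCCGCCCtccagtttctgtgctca
Gimap1 promoter: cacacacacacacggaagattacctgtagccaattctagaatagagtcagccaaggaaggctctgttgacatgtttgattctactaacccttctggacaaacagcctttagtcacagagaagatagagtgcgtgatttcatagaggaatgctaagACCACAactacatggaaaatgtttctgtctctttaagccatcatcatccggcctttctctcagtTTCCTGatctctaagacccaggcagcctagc
Gimap3 alone among the GIMAP windows held the FOXO motif TGTTTAC, 247 bases before the start, and 3.65% of 32851 mouse promoter windows of 300 bases held it. The RUNX motif TGTGGT occurred before the starts of Gimap1, Gimap4 and Gimap7 and in 16.8% of all windows. The ETS motif CAGGAA was found in the windows of Gimap1, Gimap3, Gimap5, Gimap6 and Gimap9 and in 30.6% of all windows, while the ETS motif CCGGAA was in none of the 9 GIMAP windows (Gimap8 has more than 1) and in 14.9% of all. The TCF/LEF motif CTTTGA fell after the starts of Gimap4 and Gimap7 (16% of all windows), and the RBPJ motif TGGGAA after the start of Gimap3 (25.6% of all windows). The KLF/SP motif GGGCGG was in the windows of Gimap7 and Gimap9 (35.7% of all) and GGGTGT in that of Gimap5 (16% of all). No match overlapped another, and a match describes these letters only.

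GIMAP transcripts were abundant in all 8 libraries. Summed over the family, they made up 5000.1 and 4696 CPM in marked GFP, 5303 and 5518 CPM in unmarked GFP, 5848 and 5927 CPM in marked Thy1.1, and 5944 and 5814 CPM in unmarked Thy1.1 libraries. By mean level over the 8 libraries, Gimap3 ranked 9th of 13989 tested genes, Gimap4 ranked 36th and Gimap6 ranked 79th. Gimap1, Gimap7, Gimap8, Gimap9 and Gimap5 followed at ranks 261, 772, 963, 1200 and 1503. Per kilobase of annotated exon, which allows genes to be compared, the mean level over 8 libraries was 844 ± 177 CPM per kb (SD) for Gimap3, the highest, and 38.9 ± 3.98 CPM per kb for its paralog Gimap5, the lowest.

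**Figure D1:**
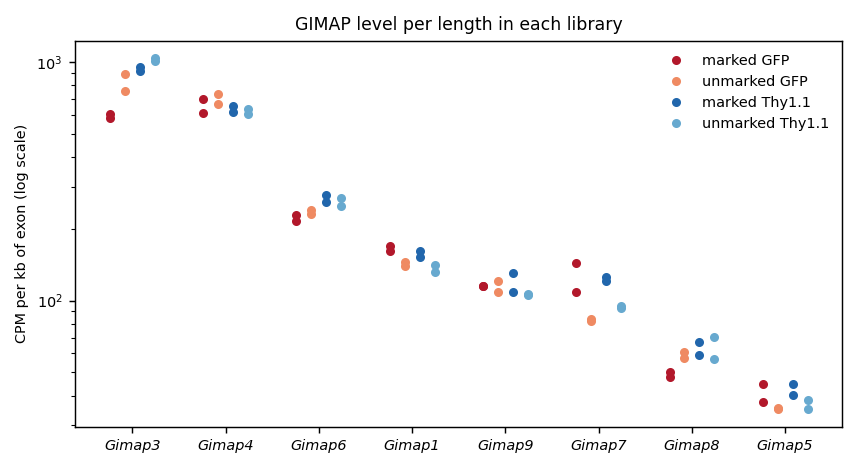
Level of each GIMAP gene in CPM per kilobase of exon (vertical log axis) in each of the 8 libraries, coloured by population, with genes ordered by their mean. Gimap3 spans 582 to 1036 CPM per kb and lies below Gimap4 in both marked GFP libraries but above it in the other 6.

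The order within the family was stable except at 2 places. In the marked GFP libraries Gimap4 had 699 and 608 CPM per kb, against 582 and 603 CPM per kb for Gimap3, so Gimap4 came first there. Gimap3 came first in each of the other 6 libraries. Gimap9 and Gimap7 also exchanged the 5th and 6th places between libraries. Gimap6, Gimap1, Gimap8 and Gimap5 kept their ranks in all 8 libraries by exon length, but when the length of the longest transcript was used instead, Gimap1 came before Gimap6, Gimap7 before Gimap9 and Gimap5 before Gimap8.

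Most of the difference in the family sum lay in Gimap3. Its share of the summed GIMAP CPM was 30.0% and 33.1% in marked GFP, 36.7% and 41.7% in unmarked GFP, 41.9% and 40.03% in marked Thy1.1, and 44.9% and 44.7% in unmarked Thy1.1 libraries. With Gimap3 left out, the sum over the other 7 members was 3499.8 and 3143 CPM in marked GFP, 3357 and 3219 CPM in unmarked GFP, 3399 and 3555 CPM in marked Thy1.1, and 3274 and 3213 CPM in unmarked Thy1.1 libraries. The marked GFP range of this remaining sum overlaps those of the other 3 populations, while the share of Gimap3 in marked GFP libraries lay below that in each other library. These sums, shares and ratios are given as descriptions and were not tested.

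**Figure D2:**
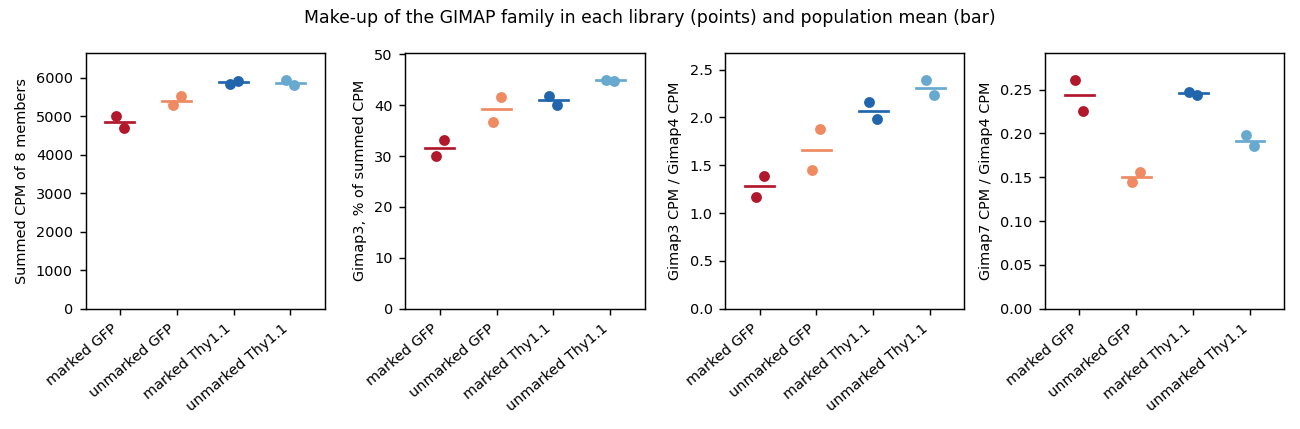
Summed CPM of the 8 GIMAP genes, share of Gimap3 in that sum (%), and the CPM ratios Gimap3/Gimap4 and Gimap7/Gimap4, for each library (points) with population means (bars). The share of Gimap3 is 30.0% and 33.1% in marked GFP libraries and 36.7% to 44.9% in the rest, and Gimap7/Gimap4 is higher in both marked populations than in both unmarked ones.

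The ratio of Gimap3 to Gimap4 does not depend on library scaling. It was 1.17 and 1.39 in marked GFP, 1.45 and 1.88 in unmarked GFP, 2.16 and 1.98 in marked Thy1.1, and 2.39 and 2.23 in unmarked Thy1.1 libraries, so both GFP populations lay below both Thy1.1 populations. The CPM ratio of Gimap3 to its paralog Gimap5 was 8.08 and 9.99 in marked GFP libraries, 13.4 and 15.6 in unmarked GFP, 13.2 and 14.3 in marked Thy1.1, and 16.9 and 17.8 in unmarked Thy1.1 libraries. Gimap7 over Gimap4 was 0.261 and 0.226 in marked GFP, 0.144 and 0.155 in unmarked GFP, 0.248 and 0.244 in marked Thy1.1, and 0.198 and 0.185 in unmarked Thy1.1 libraries, so it was higher in marked cells of either reporter.

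The first comparison asked how the reporter allele went with GIMAP levels among marked cells. Gimap3, a mitochondrial and endoplasmic reticulum GTPase that in mice influences how mitochondrial DNA variants segregate, fell in marked GFP cells. It had 1500.3 and 1553 CPM in marked GFP libraries, against 2448 and 2373 CPM in marked Thy1.1 libraries, and the libraries did not overlap. The log2 fold change was −0.66 ± 0.08 (SE), or a fold of 0.633, with an adjusted p of 0.003205 in the quasi-likelihood test of edgeR over all genes. This was the only member called, 1 of 8 lower and 0 higher, where 14.8% of all tested genes were called, 8.01% higher and 6.82% lower. The all-gene count of 1120 higher and 954 lower dropped to 199 and 282 without marked Thy1.1 library 1 and to 209 and 315 without library 2, while Gimap3 kept its call. Both marked GFP libraries were also the lowest of all 8 for Gimap3.

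Gimap6 and Gimap8 were lower without passing the threshold. Gimap6, which binds the ATG8 protein GABARAPL2 and is tied to autophagy, had 799 and 756 CPM in marked GFP, against 905 and 972 CPM in marked Thy1.1 libraries. Its log2 fold change was −0.27 ± 0.08 with an adjusted p of 0.05093 in edgeR, just short of the threshold of 0.05; without unmarked GFP library 4 it passed (−0.32, adjusted p 0.03176). Gimap8, which joins several GTPase domains in a single chain, had 186 and 176 CPM in marked GFP, against 248 and 219 CPM in marked Thy1.1 libraries, a log2 fold change of −0.37 ± 0.12 with an edgeR adjusted p of 0.08899. With Gimap3 these were the 3 members whose libraries did not overlap, all 3 lower, where the libraries of 59% of all tested genes did not overlap (29.5% higher, 29.5% lower).

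The other 5 members had log2 fold changes between −0.05 and 0.08 in this comparison, with edgeR adjusted p of 0.5753 or more. Gimap5, the member needed for survival of peripheral T cells, had 186 and 155 CPM in marked GFP, against 185 and 166 CPM in marked Thy1.1 libraries. Its 95% interval on the log2 scale ran from −0.31 to 0.23, so a change of the size of that in Gimap3 lies outside it. Gimap1, which mature T and B cells need, had an interval from −0.11 to 0.26. The interval of Gimap4, a member that speeds death of T cells after a death stimulus, ran from −0.16 to 0.25. The median over the 8 members was −0.04, against −0.01 over all tested genes.

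**Figure D3:**
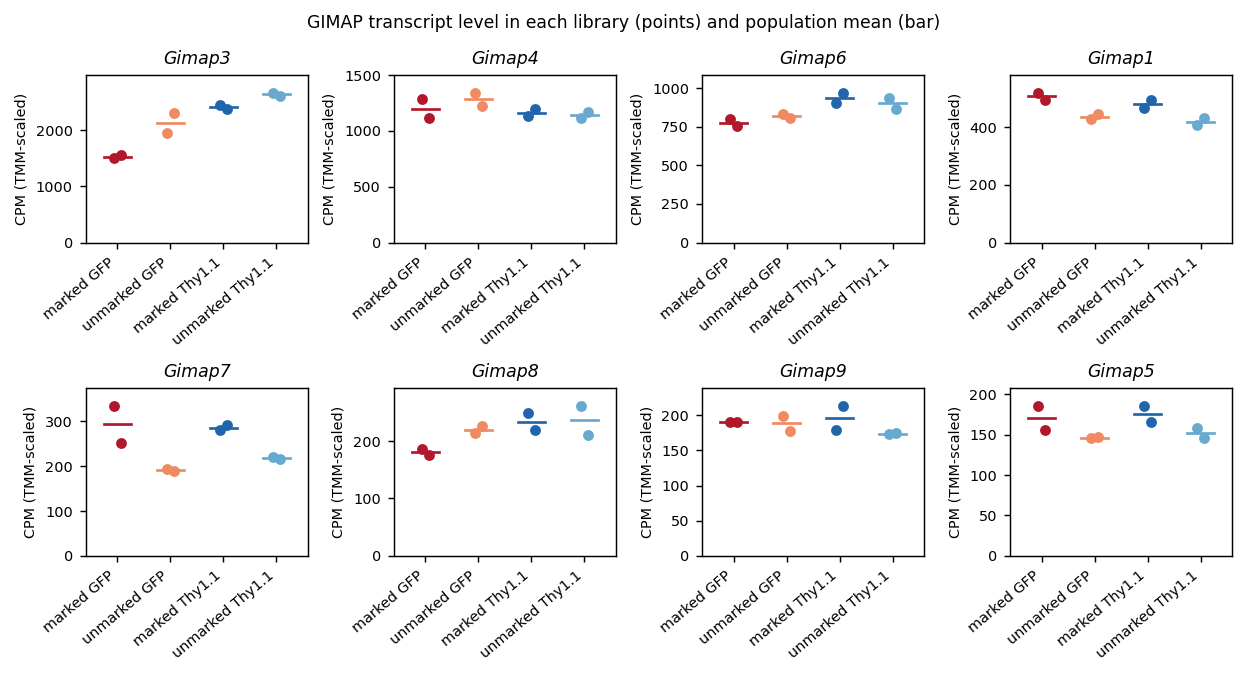
TMM-scaled CPM of each GIMAP gene in every library (points) and population mean (bar), one panel per gene with its own vertical axis from 0. Gimap3 is lowest in the marked GFP libraries, at 1500.3 and 1553 CPM, and Gimap7 is higher in both marked populations than in the unmarked population of the same reporter.

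The second comparison set marked against unmarked cells within the GFP reporter. Gimap3 fell and Gimap7 rose in marked GFP cells, so 1 of 8 members was lower and 1 higher, where 12.6% of all tested genes were called, 6.24% higher and 6.4% lower. Gimap3 had 1500.3 and 1553 CPM in marked GFP, against 1945 and 2299 CPM in unmarked GFP libraries, a log2 fold change of −0.48 ± 0.08 with an edgeR adjusted p of 0.01275. Gimap7, whose human counterpart GIMAP7 stimulates GTP hydrolysis by other GIMAP proteins, had 335 and 252 CPM in marked GFP, against 194 and 190.1 CPM in unmarked GFP libraries. Its log2 fold change was 0.61 ± 0.13, a fold of 1.53, with an edgeR adjusted p of 0.02374. The marked GFP libraries differed more from each other in Gimap7 than those of any other population, and without the library numbered 3, the one with hemoglobin transcripts, the change was 0.35 with an adjusted p of 0.08326. The Gimap7 call held in 1 of the 8 edgeR fits without a library, that without marked GFP library 4 (0.80, adjusted p 0.0067), and leaving out any of the other 7 gave an adjusted p of 0.05939 to 0.1352.

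Gimap1 was also higher without passing the threshold, with 521 and 496 CPM in marked GFP, against 427 and 446 CPM in unmarked GFP libraries, a log2 fold change of 0.22 ± 0.08 and an edgeR adjusted p of 0.112. Gimap5 and Gimap8 had log2 fold changes of 0.22 and −0.28 with edgeR adjusted p of 0.2595 and 0.1857. Gimap4, Gimap6 and Gimap9 lay between −0.10 and 0.01. Libraries did not overlap for 3 members that were higher and 3 that were lower, where the libraries of 53.8% of all genes did not overlap (28.9% higher, 24.9% lower). The first and second comparisons share the marked GFP libraries, so the low Gimap3 in those libraries enters both. When only the 4 GFP libraries were fitted, neither GIMAP call held: Gimap3 changed by −0.51 with an adjusted p of 0.07814 and Gimap7 by 0.58 with an adjusted p of 0.1169.

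**Figure D4:**
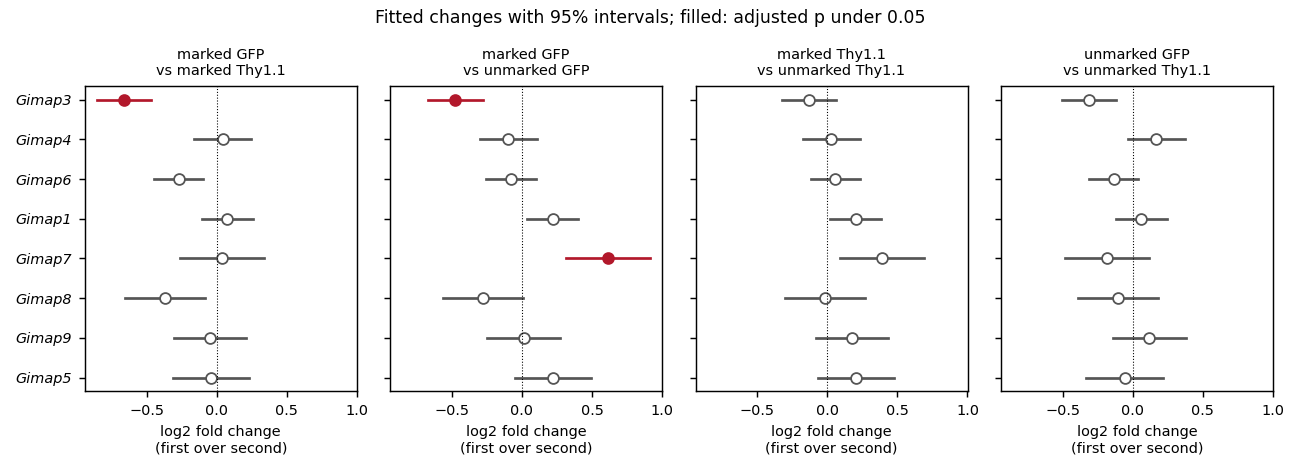
Log2 fold changes (points, first population over second) with 95% intervals from the edgeR fit for each GIMAP gene in 4 comparisons; filled points have an adjusted p under 0.05. Gimap3 is at −0.66 in marked GFP against marked Thy1.1 and −0.48 in marked against unmarked GFP cells, and Gimap7 at 0.61 in marked against unmarked GFP cells; no point is filled in the other 2 panels.

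Within the Thy1.1 reporter no GIMAP gene was called between marked and unmarked cells. Of the 8 members, 0 passed in edgeR and 0 in DESeq2, and 2 had an unadjusted p under 0.05. Over all 13989 tested genes edgeR called 0% and had 1063 genes at an unadjusted p under 0.05, and DESeq2 called 73 higher and 75 lower. Gimap7 had 281 and 292 CPM in marked Thy1.1, against 221 and 216 CPM in unmarked Thy1.1 libraries, a log2 fold change of 0.39 ± 0.13 with an edgeR adjusted p of 0.5938. Gimap1 had 467 and 497 CPM in marked Thy1.1, against 407 and 431 CPM in unmarked Thy1.1 libraries, a log2 fold change of 0.20 ± 0.08 with an edgeR adjusted p of 0.6265. Gimap3 had 2448 and 2373 CPM in marked Thy1.1, against 2669.8 and 2601 CPM in unmarked Thy1.1 libraries, a log2 fold change of −0.13 ± 0.08 with an edgeR adjusted p of 0.7897. Libraries did not overlap for 4 members that were higher and 1 that was lower, where those of 45% of all genes did not overlap (23.2% higher, 21.8% lower).

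Whether the mark went with a different change in the 2 reporters was tested by the interaction of mark and reporter, the log2 change in GFP cells minus that in Thy1.1 cells. No member passed in edgeR or DESeq2, and 1 had an unadjusted p under 0.05, where edgeR called 0.443% of all genes, 0.0929% higher and 0.35% lower. Of all 13989 tested genes, DESeq2 called 182 higher and 386 lower, and 1792 had an unadjusted p under 0.05 in edgeR. The member with an unadjusted p under 0.05 was Gimap3, at −0.35 ± 0.12 with an edgeR adjusted p of 0.2922. For Gimap7 the interaction was 0.22 ± 0.18, with a 95% interval from −0.20 to 0.64 and an edgeR adjusted p of 0.6702. So the calls in GFP cells and their absence in Thy1.1 cells are not shown to differ.

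Among unmarked cells the reporter went with no called GIMAP gene. Of the 8 members, 0 passed in edgeR and 0 in DESeq2, with 1 at an unadjusted p under 0.05, where edgeR called 0.164% of all genes, 0.0643% higher and 0.1% lower. Gimap3 had 1945 and 2299 CPM in unmarked GFP, against 2669.8 and 2601 CPM in unmarked Thy1.1 libraries, a log2 fold change of −0.31 ± 0.08 with an edgeR adjusted p of 0.2011. Libraries did not overlap for 2 members that were higher and 3 that were lower, where those of 42.6% of all genes did not overlap (21.4% higher, 21.2% lower). Gimap4 had 1344 and 1223 CPM in unmarked GFP, against 1116 and 1167 CPM in unmarked Thy1.1 libraries, a log2 fold change of 0.17 ± 0.09 that did not pass (edgeR adjusted p of 0.5124).

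The widest contrast set marked GFP against unmarked Thy1.1 cells, which differ in both mark and reporter. Gimap3 fell, and Gimap7 and Gimap1 rose, 1 lower and 2 higher of 8, where 23.6% of all genes were called, 11.4% lower and 12.3% higher. Gimap3 had 1500.3 and 1553 CPM in marked GFP, against 2669.8 and 2601 CPM in unmarked Thy1.1 libraries, a log2 fold change of −0.79 ± 0.08 with an edgeR adjusted p of 0.00106. Gimap7 had a log2 fold change of 0.43 ± 0.13 with an edgeR adjusted p of 0.04796, and Gimap1 one of 0.28 ± 0.08 with an edgeR adjusted p of 0.03789. Both lay near the threshold. Under the 8 other processing settings listed below, leaving out a library aside, Gimap7 was called in 4 and Gimap1 in 5. Gimap8, not called in the main fit, was called in 4 of these 8. Gimap7 was called without marked GFP library 4 (0.60, adjusted p 0.0069) and not without any of the other 7, among them marked GFP library 3 (0.17, adjusted p 0.2855). Gimap1 was called without unmarked GFP library 3 (0.28, adjusted p 0.04032) and in no other edgeR fit that left out a library (adjusted p 0.06588 to 0.3034). Gimap8 had 186 and 176 CPM in marked GFP, against 261 and 210.4 CPM in unmarked Thy1.1 libraries, a log2 fold change of −0.38 with an edgeR adjusted p of 0.06027; without unmarked Thy1.1 library 2 it passed (−0.56, adjusted p 0.04314). Libraries did not overlap for 3 members that were higher and 3 lower, where those of 62.4% of all genes did not overlap (31.3% higher, 31.2% lower).

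For the order of the 4 populations, unmarked GFP was also set against marked Thy1.1. No member passed in edgeR, 1 passed in DESeq2 and 2 had an unadjusted p under 0.05, where edgeR called 1.52% of all genes, 0.643% higher and 0.879% lower. Of all 13989 tested genes, DESeq2 called 458 higher and 481 lower, and 1959 had an unadjusted p under 0.05 in edgeR. Gimap7 had 194 and 190.1 CPM in unmarked GFP, against 281 and 292 CPM in marked Thy1.1 libraries, a log2 fold change of −0.58 ± 0.13 with an edgeR adjusted p of 0.08678. It passed without either marked GFP library, which this comparison does not use (adjusted p 0.02377 without library 3 and 0.0214 without library 4). Libraries did not overlap for 1 member that was higher and 5 that were lower, where those of 46.4% of all genes did not overlap (23.1% higher, 23.3% lower).

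Ordered by population mean, Gimap3 stood at 1527 ± 37.4 CPM in marked GFP, 2122 ± 249.96 CPM in unmarked GFP, 2410.4 ± 53.6 CPM in marked Thy1.1 and 2636 ± 48.3 CPM in unmarked Thy1.1 libraries (SD, n = 2 each). Of these neighbouring steps only that between marked GFP and unmarked GFP passed in edgeR. Gimap7 stood in another order, with 294 ± 58.3 CPM in marked GFP, 286 ± 8.01 CPM in marked Thy1.1, 218 ± 3.35 CPM in unmarked Thy1.1 and 192 ± 2.82 CPM in unmarked GFP libraries (SD, n = 2 each). No neighbouring step of Gimap7, nor of the other 6 members, passed the test. Over the 8 libraries the highest value of a member was 1.78 times the lowest for Gimap3 and 1.76 times for Gimap7. For Gimap4, Gimap9, Gimap5, Gimap1 and Gimap6 it was between 1.20 and 1.29 times, and for Gimap8 it was 1.48 times.

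The members therefore did not move as one. Over the 8 libraries, Pearson correlations of log2 CPM were 0.86 between Gimap3 and Gimap8, 0.78 between Gimap3 and Gimap6, 0.89 between Gimap5 and Gimap7 and 0.82 between Gimap1 and Gimap7, and −0.68 between Gimap1 and Gimap3. The paralogs Gimap3 and Gimap5 had −0.23. These are descriptions, since libraries of a population are not independent of its level. Gimap1 and Gimap7 lie next to each other on the plus strand, whereas Gimap3 lies at one end of the cluster and Gimap8 at the other.

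Genes on both sides of the cluster were read next. Of the 5 tested genes on each side, AI854703, Zfp775, Repin1, Gm5111 and Rarres2 before Gimap8 and Tmem176b, Tmem176a, Gpnmb, Malsu1 and Igf2bp3 after Gimap3, 1 was higher and 0 lower in marked GFP against marked Thy1.1 cells, where 14.8% of all tested genes were called. It was Igf2bp3, which encodes an RNA-binding protein of embryonic tissue, with 15.2 and 15.0 CPM in marked GFP, against 3.29 and 5.12 CPM in marked Thy1.1 libraries (log2 fold change 1.84 ± 0.50, edgeR adjusted p 0.04585). Against unmarked GFP cells, 1 of the 10 was higher in marked GFP cells, the membrane protein gene Tmem176b with 26.1 and 17.8 CPM, against 9.50 and 8.85 CPM in unmarked GFP libraries (log2 fold change 1.26 ± 0.32, edgeR adjusted p 0.04049), where 12.6% of all tested genes were called. Against unmarked Thy1.1 cells, 2 of the 10 were higher and 1 was lower in marked GFP cells, where 23.6% of all tested genes were called. These were Tmem176b (1.101 ± 0.32, edgeR adjusted p 0.04018), its relative Tmem176a (2.46 ± 0.55, edgeR adjusted p 0.01566) and the secreted factor gene Rarres2 (−0.85 ± 0.23, edgeR adjusted p 0.03146). These shares lay near those of all genes, and the counts describe these 10 genes only.

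Genes of the processes that GIMAP proteins are tied to were read beside them, mainly in marked GFP against marked Thy1.1 cells. In that comparison 14.8% of all tested genes were called, 8.01% higher and 6.82% lower. Of 14 genes of the BCL2 family, which decide between survival and death of lymphocytes, 0 were higher and 1 lower, with a median log2 fold change of 0.15. That gene was Bcl2 itself, the survival factor of resting T cells, with 127 and 137 CPM in marked GFP, against 670 and 837 CPM in marked Thy1.1 libraries (log2 fold change −2.51 ± 0.18, edgeR adjusted p 0.0006739). The death genes Bax, Bad and Pmaip1 had log2 fold changes of 0.45, 0.57 and 1.09 and did not pass. Bcl2 thus changed far more than any GIMAP gene, and it was as low against unmarked GFP cells, at −2.85.

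Of 16 autophagy and ATG8 genes, 1 was higher and 2 were lower, with a median of 0.33, where 14.8% of all tested genes were called. The lysosomal membrane protein genes Lamp1 and Lamp2 went opposite ways. Lamp1 had 206 and 204 CPM in marked GFP, against 352 and 322 CPM in marked Thy1.1 libraries (log2 fold change −0.72 ± 0.10, edgeR adjusted p 0.004275), and Lamp2 had 132 and 139 CPM in marked GFP, against 83.1 and 78.9 CPM in marked Thy1.1 libraries (0.74 ± 0.14, edgeR adjusted p 0.01379). Atg12, whose product is conjugated during autophagosome formation, was lower by a log2 fold change of −0.65. Gabarapl2, the ATG8 partner of Gimap6, had 146 and 131 CPM in marked GFP, against 101 and 115 CPM in marked Thy1.1 libraries and did not pass (0.36 ± 0.12, edgeR adjusted p 0.08227).

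Of 16 genes of the naive state, quiescence and lymph node homing, 0 were higher and 8 lower, with a median of −0.42. Of all tested genes, 14.8% were called there. Against unmarked GFP cells 0 were higher and 11 lower, with a median of −0.94, where 12.6% of all tested genes were called. In the first of these comparisons Id3, Bach2, Satb1 and Lef1, transcription regulators of resting T cells, changed by −2.37, −1.32, −0.96 and −0.81 on the log2 scale. Of 16 cell cycle genes, 15 were higher and 0 lower in marked GFP against marked Thy1.1 cells, with a median of 2.54, and the survivin gene Birc5, Stmn1, Ccna2 and Mcm2 changed by 5.84, 3.44, 2.60 and 1.27. The GIMAP median of −0.04 lay between the medians of these lists. Its members ranged from −0.66 to 0.08, so Gimap3 lay below the naive list median of −0.42. Gimap3 thus fell in the same libraries in which resting state genes were low and cell cycle genes high, and their part in its change was not tested.

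Of 10 regulators tied to GIMAP expression or function (Notch, RUNX, Ikaros, ETS, FOXO and GSK3 genes), 1 was higher and 1 lower. Of all tested genes, 14.8% were called in marked GFP against marked Thy1.1 cells. Runx3, a RUNX factor of effector T cells, had 80.4 and 96.3 CPM in marked GFP, against 46.7 and 53.9 CPM in marked Thy1.1 libraries (log2 fold change 0.81 ± 0.19, edgeR adjusted p 0.02697). Foxo3, a factor of quiescence and survival, had 14.3 and 17.8 CPM in marked GFP, against 28.2 and 32.0 CPM in marked Thy1.1 libraries (−0.91 ± 0.22, edgeR adjusted p 0.0311). Against unmarked GFP cells Runx3 was again higher and Foxo3, Notch2, Ikzf1 and Ets1 were lower in marked GFP cells. There 12.6% of all tested genes were called. Of 16 other immune GTPases listed, guanylate-binding proteins and interferon-inducible GTPases, 11 passed the filter. In marked GFP against marked Thy1.1 cells, where 14.8% of all tested genes were called, 1 of the 11 was called. It was Gbp8, at −0.64 ± 0.15 with an edgeR adjusted p of 0.02701. Each of these lists shares the libraries compared with the GIMAP genes, and the counts describe the lists only.

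Markers of other cells that make GIMAP transcripts were read beside the members. Among the B cell markers, Cd79b had 14.4 and 3.68 CPM in marked GFP, 10.6 and 7.90 CPM in unmarked GFP, 32.8 and 31.04 CPM in marked Thy1.1, and 28.8 and 32.5 CPM in unmarked Thy1.1 libraries. Cd79a had 3.00 and 4.30 CPM in marked GFP, 9.26 and 10.3 CPM in unmarked GFP, 6.04 and 10.2 CPM in marked Thy1.1, and 4.91 and 9.598 CPM in unmarked Thy1.1 libraries. Pax5 stayed at or below 1.08 CPM and Ms4a1 at or below 2.16 CPM, its highest value being in an unmarked GFP library. Cd79b was lower in every GFP library than in every Thy1.1 library, while Cd79a and Ms4a1 did not split in that way. Of the 5 B cell markers tested, edgeR called 0 higher and 1 lower in marked GFP against unmarked Thy1.1 cells. There 11.4% of all tested genes were lower. The 5 endothelial markers summed to 100.4 to 156 CPM in marked GFP, 276 to 304 CPM in unmarked GFP, 179.8 to 186 CPM in marked Thy1.1 and 244 to 246 CPM in unmarked Thy1.1 libraries. Nearly all of that sum was Pecam1, which T cells also express, while Cdh5 was at most 0.779 CPM and Kdr at most 0.0205 CPM. The 5 CD8 T and NK markers summed to 12.7 to 17.7 CPM in marked GFP, 25.8 to 41.02 CPM in unmarked GFP, 15.5 to 22.3 CPM in marked Thy1.1 and 27.7 to 29.9 CPM in unmarked Thy1.1 libraries, with Ncr1 at 0 in 7 of 8. Of the 4 of them tested, edgeR called 1 lower in marked GFP against marked Thy1.1 cells, where 6.82% of all tested genes were lower. Against unmarked GFP cells 2 were lower (6.4% of all genes), and against unmarked Thy1.1 cells 3 were lower (11.4% of all genes). In each of these comparisons 0 were higher. Of the 3 endothelial markers tested, 1 was lower in marked GFP against unmarked GFP cells and 1 against unmarked Thy1.1 cells. Pecam1 was lowest in the marked GFP libraries, as Gimap3 was. The part of Pecam1, of the B cell markers and of the CD8 T and NK markers in the Gimap3 change was not tested. In bulk RNA, fewer cells rich in a transcript and less of it per cell cannot be told apart.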

How the data were processed

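Per the labels' protocols, polyA RNA of sorted cells went through 12 amplification cycles (SMART-Seq v4) and 8 PCR cycles (KAPA Hyper Prep) and was read as 50-nt paired ends. The authors deposited whole-number read counts per gene with no normalization, per the file headers. DESeq appears, with no version, among the submitters' processing notes, while the aligner, the counter and the genome were not given in the sources used here.

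In all, the table held 24116 rows. The 8 without a gene name (0.0215% to 0.0264% of a library) were left out. Its GFP columns end in 3 and 4, the sample titles in 1 and 2, so these columns were matched to populations only and carry the table's numbers. Whether both libraries of a population stem from different animals is not in the labels, so p-values reflect library-to-library spread only, which may be technical.

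Tests used R 4.3.3 and edgeR 4.0.16: its expression filter with a minimum count of 10, TMM factors of 0.978 to 1.02 and 1 robust quasi-likelihood fit with a mean per population over all 8 libraries (4 residual degrees of freedom). P-values were Benjamini-Hochberg adjusted over 13989 genes, and 0.05 was the threshold. SEs were derived from the F statistic. The procedure was tested on simulated data. Alternatives were RLE factors, library totals, no filter, at least 1 CPM in all libraries, DESeq2 1.42.0, non-robust dispersion, a replicate block, only the populations compared, and each library left out.

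Exon lengths, overlaps and transcripts came from GENCODE vM21 (GRCm38), promoters from RefSeq (GRCm38.p6, all 8 genes matched), and coding sequences were aligned with Biopython 1.88. Named were all 8 members, the 10 genes most and 5 least like the GIMAP mean with at least 5 CPM, called genes among 5 neighbours on each side, and up to 4 genes of each list by adjusted p in marked GFP against marked Thy1.1 cells. Bcl2 in other comparisons, single markers and the genes most like Gimap3 alone or Gimap7 alone were picked once their values had been seen. Earlier results of these data were known when the members and lists were chosen. One marker gene is not reported here.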

Additional observations from a re-analysis of the deposited data

How the results depend on the processing

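Gimap3 kept its call and its direction in all 8 fits that each left out a library, in marked GFP against marked Thy1.1 (−0.73 to −0.66), unmarked GFP (−0.59 to −0.39) and unmarked Thy1.1 cells (−0.84 to −0.79), and under each other alternative except the fit to the 4 GFP libraries alone. Differences between the odd (1 or 3) and even (2 or 4) numbered library of a population correlated at 0.0325 to 0.0560 between populations. These values were under the 0.1 set for pairing, so the block is an alternative only. Matching 1 to 3 and 2 to 4 across reporters is assumed and not given by the labels. Some genes did go with the number: the interferon-inducible gene Irgm1 had 132 and 298 CPM in marked GFP, 128 and 229 in unmarked GFP, 119 and 214 in marked Thy1.1, and 105 and 200.05 in unmarked Thy1.1 libraries, the higher in the second library each time, and Bst2 did the same. The Gimap7 call in marked against unmarked GFP cells held in 1 of 8 fits without a library, at 0.35 to 0.80. For marked GFP against marked Thy1.1 cells, the 1 GIMAP gene called became 2 with RLE factors, with library totals and with non-robust dispersion. The count was also 2 with a replicate block (Gimap6 at −0.27, edgeR adjusted p 0.04844). It was 3 with at least 1 CPM in all libraries and with DESeq2 (Gimap6 and Gimap8 added). Over all genes the 1120 higher and 954 lower became 1107 and 1127 of 10549 genes with at least 1 CPM. They were 1047 and 993 with RLE, 886 and 1120 with totals, 1074 and 925 with non-robust dispersion and 1160 and 1054 with the block. For marked against unmarked GFP cells the 2 became 0 with only the populations compared and 1 to 2 with a library left out. For marked GFP against unmarked Thy1.1 cells the 3 became 5 with DESeq2 and 1 with only the populations compared. Over all genes the 1714 higher and 1589 lower became 2188 and 2212 with DESeq2. With only the populations compared they became 1315 and 1090 of 13153 genes. For unmarked GFP against marked Thy1.1 cells the 0 became 1 (Gimap7) with at least 1 CPM and with DESeq2. With at least 1 CPM, 150 genes were higher and 181 lower of all 10549 tested there. Within a library, the highest GIMAP level per length was on average 22.3 times the lowest by exon length and 15.6 times by longest transcript. By Spearman, 3 of the 15 genes most or least like the GIMAP mean were the same. Over all genes, marked against unmarked GFP cells gave 873 higher and 895 lower, but 107 and 193 with only the populations compared and 1402 and 1572 with DESeq2, and DESeq2 called 1572 higher and 1592 lower, against 1120 and 954 in edgeR, in marked GFP against marked Thy1.1 cells. In marked against unmarked Thy1.1 cells DESeq2 called 73 and 75 (edgeR 0), in unmarked GFP against unmarked Thy1.1 cells 330 higher (edgeR 9), in unmarked GFP against marked Thy1.1 cells 458 and 481 (edgeR 90 and 123), and for the interaction 182 and 386 (edgeR 13 and 49). With 1 library left out, the all-gene counts in marked against unmarked GFP cells were lowest without unmarked GFP 4 (141 and 317), and were also over 1.5 times lower without marked GFP 3 (296 and 673), marked Thy1.1 1 (344 and 612) or 2 (343 and 609) and unmarked Thy1.1 1 (413 and 652) or 2 (410.0 and 655). In marked GFP against unmarked Thy1.1 cells, 1714 and 1589 became 624 and 731 without unmarked Thy1.1 1 and 629 and 719 without 2. The cause of these moves was not tested.

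Changes of sign touched only GIMAP values that were not called with all libraries, and most of these were near 0; the Gimap7 interaction (0.22) and Gimap5 in marked GFP against unmarked Thy1.1 cells (0.16) were larger. Gimap4 and Gimap7 in marked GFP against marked Thy1.1 cells were at −0.0170 and −0.0236 with library totals (all genes shifted by −0.07). Gimap9 in marked against unmarked GFP cells was at −0.00791 with RLE, −0.0173 with totals, −0.0236 with no filter, −0.0126 with at least 1 CPM, −0.00792 with DESeq2 and −0.0224 with only the populations compared. Gimap8 in marked against unmarked Thy1.1 cells was at 0.0205 with totals. The interactions of Gimap1 and Gimap5 were at −0.0115 and −0.0111 with RLE, −0.0467 and −0.0458 with totals, −0.0246 and −0.0244 with no filter, −0.0152 and −0.0147 with at least 1 CPM, and −0.0115 and −0.0110 with DESeq2. With a library left out, in marked GFP against marked Thy1.1 cells Gimap1 ran from −0.0228 to 0.10, Gimap4 from −0.11 to 0.13, Gimap5 from −0.23 to 0.0662, Gimap7 from −0.23 to 0.21 and Gimap9 from −0.23 to 0.0380. In marked against unmarked cells Gimap9 ran from −0.11 to 0.0936 within GFP and Gimap8 from −0.14 to 0.16 within Thy1.1. In unmarked GFP against unmarked Thy1.1 cells Gimap5 ran from −0.10 to 0.0039 and Gimap8 from −0.24 to 0.0652. In marked GFP against unmarked Thy1.1 cells Gimap4 ran from −0.0660 to 0.15 and Gimap5 from −0.0058 to 0.27, and in unmarked GFP against marked Thy1.1 cells Gimap9 ran from −0.19 to 0.0714. The interactions ran from −0.0910 to 0.0506 for Gimap1, −0.18 to 0.14 for Gimap5 and −0.0562 to 0.41 for Gimap7. Each member had at least 5787 counts per library, and each population 2 libraries.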

Other observations

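The mean of the standardized log2 CPM of the 8 GIMAP genes was highest in marked Thy1.1 library 2 (0.75) and lowest in marked GFP library 4 (−0.55). Over the 8 libraries and 9654 genes with at least 5 CPM, the genes most like it were Unc50 (r = 0.96), T2 (0.95), Hs1bp3 (0.94), Chrac1 (0.93), Cbr1 (0.93), Izumo1r (0.92), Dhrs11 (0.91), Zfand1 (0.90), Zfp975 (0.90) and Mrpl22 (0.89). Izumo1r encodes the folate receptor protein FR4 of Treg cells. The genes least like it were Etf1 (r = −0.97), Tep1 (−0.96), Acly (−0.96), Eif3b (−0.94) and Rnf6 (−0.94). Libraries of a population share its level, so these correlations carry no p.

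Gimap3 alone had closer company, in a comparison chosen after the data were seen. The genes most like it were Adgre5 (r = 0.99), Pkd1 (0.99), Txnip (0.99), Rapgef1 (0.99), Mkl1 (0.99), Stx1a (0.99), Cyth4 (0.99), Ubash3a (0.99), Klhl42 (0.99) and Zcchc11 (0.99). By Spearman, with ties in r broken by gene name, 3 of these 10 were the same. Adgre5 encodes the adhesion receptor CD97, and it had 276 and 283 CPM in marked GFP, 409 and 476 CPM in unmarked GFP, 486 and 473 CPM in marked Thy1.1, and 576 and 554 CPM in unmarked Thy1.1 libraries. Txnip, a glucose uptake inhibitor that is high in resting cells, had 464 and 543 CPM in marked GFP, 742 and 925 CPM in unmarked GFP, 1024 and 1005 CPM in marked Thy1.1, and 1071 and 1046 CPM in unmarked Thy1.1 libraries. In both genes, as in Gimap3, marked GFP libraries were lowest and unmarked Thy1.1 libraries highest. Both were picked for their correlation with Gimap3 over these same libraries, so this shared order follows from the choice.

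The genes least like Gimap3 were Lgmn, Nedd8, Ctla4, Rps27l and Gmfg (r from −0.996 to −0.994). By Spearman, with ties in r broken by gene name, 0 of these 5 were the same. Ctla4, the inhibitory receptor of activated and Treg cells, had 1264 and 1072 CPM in marked GFP, 641 and 471 CPM in unmarked GFP, 429 and 460.3 CPM in marked Thy1.1, and 362 and 348 CPM in unmarked Thy1.1 libraries. The genes most like Gimap7 were others, led by Aup1 (r = 0.99), Slc39a4 (0.98) and Ocel1 (0.98), with Cd82 (0.97) also among the 10. The genes least like Gimap7 were Ap1b1 (r = −0.99), Mroh1 (−0.98), Kng2 (−0.96), Arl5b (−0.96) and Kbtbd2 (−0.96). By Spearman, 3 of the 10 genes most like Gimap7 and 2 of the 5 least like it were the same.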
